A study of Homo sapiens with 18 samples.

Results

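The comparison asked how the response to phorbol 12-myristate 13-acetate (PMA) differed between HL60 and U937, a pair of established human myeloid leukaemia cell lines. It was the PMA effect in HL60 minus the PMA effect in U937, and each effect was the level with PMA minus the level with its vehicle, dimethyl sulfoxide (DMSO). The 12 arrays of these lines were taken by title from the 18 arrays of the series, and all 16241 genes with at least 3 probe sets of 1 gene symbol were compared. The groups were HL60 with 30 nM PMA, HL60 with DMSO at a 1000 fold dilution, U937 with 30 nM PMA and U937 with the same DMSO dilution. Each group held 3 arrays of total RNA taken after 3 days. No genotype, allele or further agent is named in the labels, and both lines grew in the same serum-containing medium. Each line is a single line, so a difference between them describes HL60 and U937 and not classes of leukaemia. The labels do not say whether the arrays came from separate cultures, so the p-values reflect no more than array-to-array spread, which may be technical.

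PMA stands in for diacylglycerol and switches on protein kinase C, which acts through MAP kinases, AP-1 and NF-kappaB. In myeloid leukaemia lines it is widely used to stop division and drive adherent, macrophage-like differentiation. HL60 cells resemble promyelocytes, which fill their primary granules with proteins such as myeloperoxidase. U937 cells were grown from a histiocytic lymphoma and resemble monoblasts, the precursors of monocytes.

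Levels are log2 values centred on the median probe set of each array, so 0 is that median, and a gene's level is the mean of its probe sets. Probe sets below -1.48, the 30th percentile of the centred values, are dim, and changes that start or end there are approximate. Effects are differences of levels in log2 units, given ± SE, and group levels are given as mean ± SD of 3 arrays. Array medians before centring ran from 6.18 to 6.95, and within-group Pearson correlations over all probe sets from 0.931 to 0.977. The U937 PMA array numbered 2 had the lowest median and held 83228 distinct values, against 215120 to 220312 on the other 11 arrays. Neither U937 array numbered 2 shared more than 5 exactly tied values with any other array, whereas the remaining arrays of a line shared 44 to 103. Since these arrays stand apart, counts are also given without both of them and with a term for them in the fit.

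PMA changed many genes in each line, and for most of them no difference between the lines was called at this precision. The difference was called (limma, adjusted p under 0.05) for 1635 genes, 10.1% of those tested, with 887 higher (5.46%) and 748 lower (4.61%). Without both U937 arrays numbered 2 the call was made for 1026 genes, with 551 higher and 475 lower. With both kept and a term for them in the fit, 1587 were called. With values as deposited, uncentred, 972 were called, with 730 higher and 242 lower, and that scaling put the median difference of all genes at 0.22, against -0.06 after centring. With the replicate number as a block within each line, 3065 were called. PMA raised 2383 and lowered 2430 genes in HL60, 29.6% in all, and raised 2325 and lowered 2343 in U937, 28.7% in all. A further 2229 genes changed in the same direction in both lines with no call for the difference.

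The called genes fell into several patterns. In 234 of them both lines rose and in 177 both fell: 182 rose further in HL60 and 52 further in U937, while 159 fell further in HL60 and 18 further in U937. Opposite responses, called up in one line and down in the other, were found for 119 genes, 0.733% of those tested. Of these, 66 rose in HL60 and fell in U937, and 53 fell in HL60 and rose in U937. A response was classed as confined to a line when it reached 1 log2 unit there and the 95% interval of the other line's effect lay within 1 unit of 0. By that rule 520 genes (3.2%) were confined to HL60, with 336 up and 184 down, and 229 (1.41%) to U937, with 120 up and 109 down. Without both U937 arrays numbered 2, there were 53 opposite and 485 confined responses in all, against 749 confined with all arrays, the term for these arrays gave 112 and 729, and the within-line block gave 259 and 1142.

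**Figure D1:**
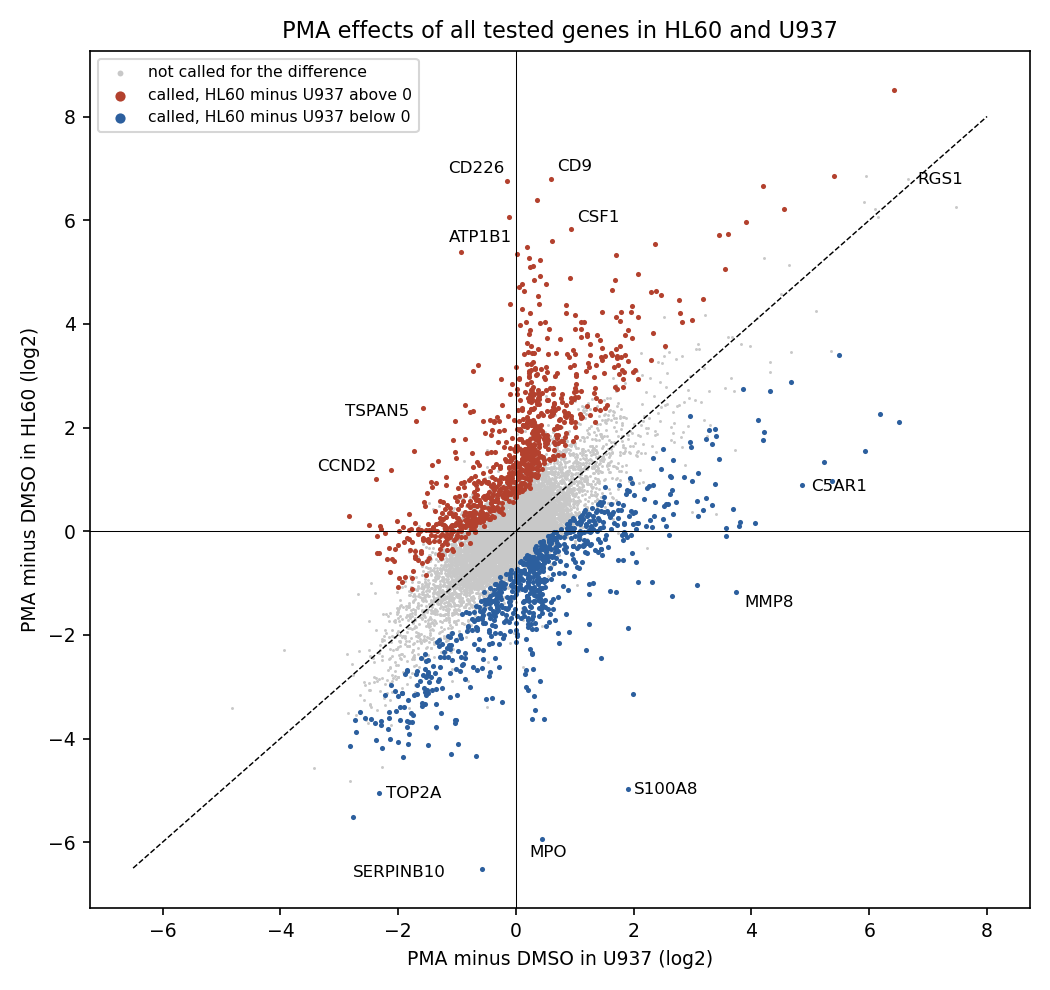
Each point is a gene, with its PMA effect in U937 on the horizontal axis and in HL60 on the vertical axis (log2), and the dashed line marks equal effects. The 887 genes called for a difference above 0 lie above the line and the 748 called below 0 lie under it. CD226, CD9 and CSF1 lie far up in HL60 beside far smaller changes in U937.

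Starting levels differed between the lines for many genes. Of all genes, 24.9% differed between DMSO-treated HL60 and DMSO-treated U937, with 1958 higher and 2079 lower in HL60. With PMA, 27.8% differed, with 2156 higher and 2358 lower. MPO, the myeloperoxidase of primary granules, was far higher in DMSO-treated HL60 (6.09 ± 0.11) than in DMSO-treated U937 (-1.66 ± 0.11), while ELANE, neutrophil elastase, was high in both (4.66 ± 0.13 in HL60 and 4.36 ± 0.31 in U937). HOXA9 and its partner MEIS1, factors of early progenitors, were the reverse. HOXA9 stood at -1.69 ± 0.14 in DMSO-treated HL60 and 2.05 ± 0.50 in DMSO-treated U937, and MEIS1 at -2.52 ± 0.20 and 3.12 ± 0.06 in the same groups. CD4, a receptor that monocytes also carry, was above the array median in both, at 2.32 ± 0.07 in HL60 and 1.12 ± 0.13 in U937.

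Among the 887 genes with a difference called above 0, the largest differences lay in genes that were bright in PMA-treated HL60 and far lower in the other 3 groups. CD226 encodes DNAM-1, an adhesion and activating receptor best known from T and NK cells. CD226 stood at 4.09, 4.32 and 3.79 in PMA-treated HL60, against -2.79, -2.76 and -2.53 in DMSO-treated HL60. In U937, CD226 stood at -3.42, -3.49 and -3.30 with PMA, against -3.38, -3.56 and -2.82 with DMSO. The PMA-treated HL60 arrays all lay above every other array, and the difference was 6.91 ± 0.28 (adjusted p = 3.48e-08). CD9 encodes a tetraspanin that organizes integrins in the membrane. CD9 stood at 5.70, 5.12 and 5.06 in PMA-treated HL60, against -1.42, -1.69 and -1.38 in DMSO-treated HL60. In U937, CD9 stood at 0.60, 0.28 and -0.22 with PMA, against -0.06, -0.29 and -0.81 with DMSO. The U937 groups overlapped, and the difference was 6.19 ± 0.35 (adjusted p = 8.11e-07). CSF1 encodes the macrophage growth factor M-CSF. CSF1 stood at 4.75, 5.25 and 4.75 in PMA-treated HL60, against -1.24, -0.99 and -0.49 in DMSO-treated HL60. In U937, CSF1 stood at -0.26, -0.60 and 0.03 with PMA, against -1.28, -1.41 and -0.97 with DMSO. PMA-treated HL60 lay above all other arrays, the difference being 4.88 ± 0.32 (adjusted p = 2.43e-06). In U937 too, every PMA array lay above every DMSO array for CSF1.

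**Figure D2:**
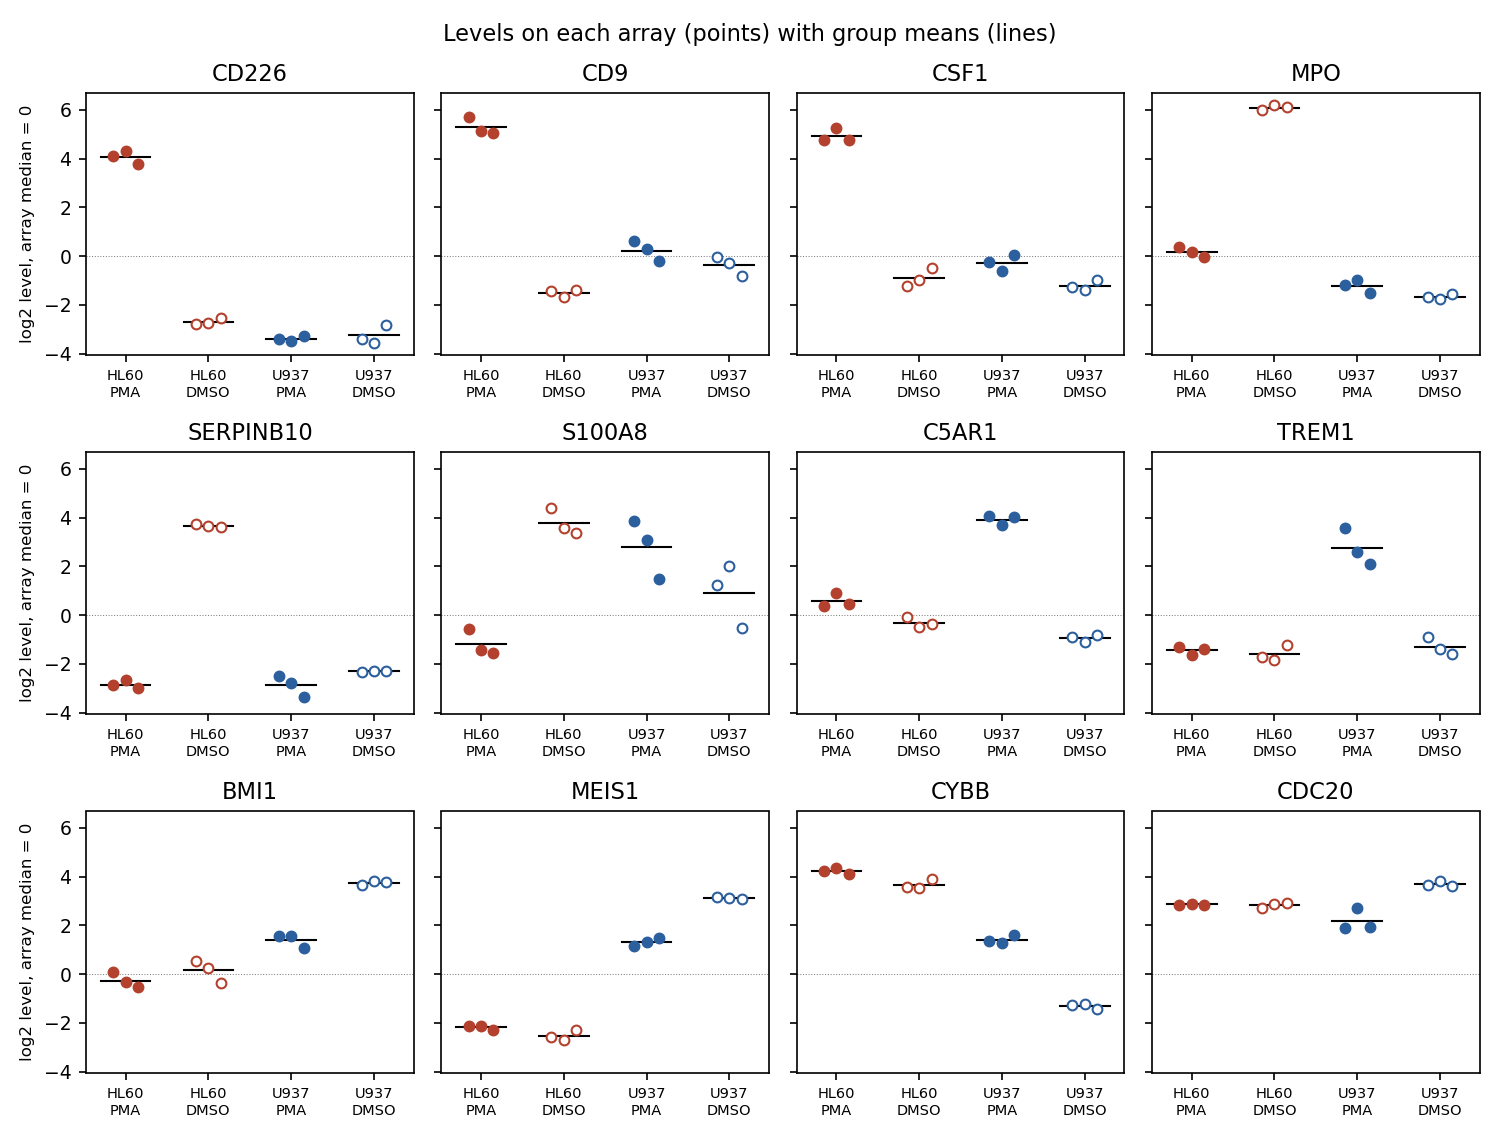
Points are the 3 arrays of each group and lines the group means (log2 level, array median at 0), HL60 in red and U937 in blue, PMA filled and DMSO open. CD226, CD9 and CSF1 are high in PMA-treated HL60 alone, MPO and SERPINB10 in DMSO-treated HL60 alone, and C5AR1 and TREM1 in PMA-treated U937 alone, while CYBB starts high in HL60 and low in U937.

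Other large rises in HL60 touched varied functions. CRABP2, a carrier of retinoic acid, differed by 6.18 ± 0.29, with effects of 6.05 ± 0.21 in HL60 and -0.12 ± 0.21 in U937. CTSL, the lysosomal protease cathepsin L, differed by 4.86 ± 0.41, with 5.09 ± 0.29 in HL60 and 0.23 ± 0.29 in U937. ATP1B1, a subunit of the sodium pump, moved in opposite directions and is described with the opposite responses. The mucin-type glycosyltransferase GALNT12 (6.02 ± 0.23), the adaptor SHC4 (5.32 ± 0.19), the nociceptin precursor PNOC (5.30 ± 0.24), the immune cell receptor SLAMF6 (5.05 ± 0.27), the trypsin inhibitor SPINK1 (4.99 ± 0.88) and the heparan sulfate proteoglycan GPC4 (4.83 ± 0.63) completed the 12 largest positive differences. All 3 PMA-treated HL60 arrays exceeded the other 9 for each of these 6 genes. The spread within PMA-treated HL60 was wide for SPINK1, at 4.56, 1.36 and 1.63, and for GPC4, at 1.59, 1.26 and 3.61.

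Genes of adhesion, lipid handling and the immediate early response were more often called higher than lower. Over all genes, 5.46% were called higher and 4.61% lower for the difference. Of 30 measured genes of integrins and adhesion, 8 were called higher and 4 lower, with a median difference of 0.33, against -0.06 over all genes. Besides CD226 and CD9, differences above 0 were called for the fibronectin receptor subunit ITGA5 (1.85 ± 0.35), ITGB8 (2.07 ± 0.28) and the cell adhesion molecule ALCAM (1.89 ± 0.40). ITGB8 takes part in activating TGF-beta. The ITGA5 rise in U937 lost its limma call in 3 of the 12 fits without 1 array (adjusted p from 0.101 to 0.107). ITGB5, a vitronectin receptor subunit, went the other way at -2.50 ± 0.31, with effects of 0.57 ± 0.22 in HL60 and 3.08 ± 0.22 in U937. SELPLG, the P-selectin ligand of leukocytes, fell in HL60 by 2.06 ± 0.19 and had an effect of -0.22 ± 0.19 in U937. Of 19 macrophage lipid and scavenging genes, limma called 6 higher and 0 lower (1 lower at an unadjusted p under 0.05), with a median of 0.24. They included the apolipoprotein APOE (2.07 ± 0.22), the lipoprotein lipase LPL (1.84 ± 0.34), and GPNMB (1.94 ± 0.38), a glycoprotein of lipid-laden macrophages. GPNMB started low in HL60 and high in U937: it rose to 1.90 ± 0.27 in PMA-treated HL60, against -1.89 ± 0.06 with DMSO, and to 4.98 ± 0.30 in PMA-treated U937, against 3.13 ± 0.62 with DMSO, so its level with PMA remained higher in U937.

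Of 28 AP-1, EGR and immediate early genes, 8 were called higher and 3 lower (5.46% and 4.61% of all genes), with a median of 0.31. In the fits without the HL60 DMSO array numbered 2 or without the U937 DMSO array numbered 2, 5 were called higher, and 4 without both U937 arrays numbered 2. The count of 3 lower dropped to 1 without HL60 PMA 2, without U937 PMA 2 or without both U937 arrays numbered 2. The list rose in both lines, with 19 members up in HL60 and 22 in U937 (14.7% and 14.3% of all genes). DUSP2, a nuclear phosphatase that switches off MAP kinases, stood at 3.53 ± 0.28 in PMA-treated HL60 and 0.88 ± 0.03 in DMSO-treated HL60, and at 0.98 ± 0.12 in PMA-treated U937 and 1.08 ± 0.03 in DMSO-treated U937, a difference of 2.74 ± 0.20. EGR2, a zinc finger factor of macrophage differentiation, rose in both lines, by 5.96 ± 0.21 in HL60 and 3.91 ± 0.21 in U937, and the difference was 2.05 ± 0.30. The stress-induced factor ATF3 (1.39 ± 0.29) and the MAP kinase phosphatase DUSP5 (1.47 ± 0.19) likewise rose further in HL60. BHLHE41, a transcriptional repressor of the circadian clock, rose in HL60 by 3.43 ± 0.25 and had an effect of 0.27 ± 0.25 in U937.

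Genes that fell in HL60 were among the largest negative differences, and several were products of granulocyte precursors. MPO stood at 0.35, 0.17 and -0.05 in PMA-treated HL60, against 5.98, 6.18 and 6.12 in DMSO-treated HL60. In U937, MPO stood at -1.18, -0.97 and -1.52 with PMA, against -1.68, -1.76 and -1.54 with DMSO. HL60 lost most of its MPO signal while U937 arrays all lay below 0, and the difference was -6.37 ± 0.23 (adjusted p = 2.52e-08). SERPINB10 encodes bomapin, a nuclear serpin of haematopoietic cells. SERPINB10 stood at -2.88, -2.68 and -2.99 in PMA-treated HL60, against 3.74, 3.65 and 3.60 in DMSO-treated HL60. In U937, SERPINB10 stood at -2.49, -2.78 and -3.37 with PMA, against -2.32, -2.31 and -2.28 with DMSO. With PMA the arrays of both lines were dim and overlapped, and the difference was -5.94 ± 0.27 (adjusted p = 8.49e-08). EPX, eosinophil peroxidase, followed the same course, with a difference of -4.09 ± 0.65. The 6 largest HL60-confined falls held MPO and SERPINB10. The 6 also held the scaffold protein LIN7A, which fell by 3.63 ± 0.16, and the cannabinoid receptor CNR2, which fell by 3.29 ± 0.35. The integral membrane protein ITM2C, which fell by 3.25 ± 0.17, and the adaptor HSH2D, which fell by 3.21 ± 0.15, completed them. Confined does not mean unchanged in U937. SERPINB10 and ITM2C also had small called falls in U937, each lost in 6 of the 12 fits without 1 array.

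Of 13 measured primary granule proteins, limma called 8 lower and 0 higher (0 higher at an unadjusted p under 0.05), with a median difference of -1.76. For the difference, 4.61% of all genes were called lower and 5.46% higher. In HL60 11 of the 13 fell (15.0% of all genes did), and in U937 4 fell (14.4% of all genes) and 1 rose. MPO, the protease inhibitor CST7 (-2.29 ± 0.41) and the granule membrane protein NKG7 (-1.76 ± 0.27) were called in every fit that left out 1 array. The list count was less stable: 4 were called without the HL60 DMSO array numbered 2, without the U937 DMSO array numbered 1 or without the U937 PMA array numbered 2, and 5 without the HL60 PMA array numbered 3 or without the U937 DMSO array numbered 2. ELANE fell in both lines from similar starting levels, by 3.88 ± 0.22 in HL60 and 2.71 ± 0.22 in U937. Its difference of -1.17 ± 0.31 had an adjusted p of 0.0308, and the call was lost when any 1 of these arrays was left out: HL60 PMA 1 or 3, HL60 DMSO 2 or 3, U937 PMA 2 or U937 DMSO 1 or 2 (adjusted p from 0.0561 to 0.0822). CTSG, the granule protease cathepsin G, fell by 3.40 ± 0.48 in HL60 and 4.82 ± 0.48 in U937. The CTSG difference of 1.42 ± 0.68 was not called (95% interval -0.06 to 2.90), but had an adjusted p of 0.00507 with the replicate block within each line. MYB, a transcription factor of dividing progenitors, fell in both lines and further in HL60. It fell to -1.26 ± 0.20 in PMA-treated HL60, against 4.25 ± 0.22 with DMSO, and to 1.49 ± 0.20 in PMA-treated U937, against 4.26 ± 0.18 with DMSO, a difference of -2.75 ± 0.24 (adjusted p = 1.82e-05).

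In U937, PMA raised receptors and secreted proteins whose rise in HL60 was smaller or not called. C5AR1 encodes the receptor for the complement fragment C5a, a strong attractant of phagocytes. C5AR1 stood at 0.38, 0.89 and 0.43 in PMA-treated HL60, against -0.06, -0.51 and -0.37 in DMSO-treated HL60. In U937, C5AR1 stood at 4.05, 3.70 and 4.01 with PMA, against -0.91, -1.09 and -0.81 with DMSO. Every PMA-treated U937 array lay above every other array, and the difference was -3.98 ± 0.25 (adjusted p = 1.46e-06). TREM1, a receptor that amplifies inflammatory signals, led the U937-confined rises. TREM1 stood at -1.30, -1.66 and -1.40 in PMA-treated HL60, against -1.74, -1.86 and -1.21 in DMSO-treated HL60. In U937, TREM1 stood at 3.58, 2.57 and 2.11 with PMA, against -0.91, -1.40 and -1.61 with DMSO. The HL60 groups overlapped, and the difference was -3.91 ± 0.46 (adjusted p = 0.000175). CD163, the haemoglobin scavenger receptor of macrophages, was dim in HL60 with and without PMA. It stood at 1.65, 0.40 and -0.71 in PMA-treated U937, against -2.98, -3.18 and -3.21 in DMSO-treated U937, and the difference was -3.51 ± 0.58. IL7R, the interleukin 7 receptor chain (-3.62 ± 0.36), the scaffold protein AHNAK2 (-3.67 ± 0.41), the vasoconstrictor peptide precursor EDN1 (-3.66 ± 0.26) and the inhibitory receptor PILRA (-2.79 ± 0.27) were the other U937-confined rises among the 6 largest.

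Receptors for attractants and cytokines were more often called lower than higher in the difference. Of 26 measured, limma called 10 lower and 0 higher (1 higher at an unadjusted p under 0.05), with a median difference of -0.80. The shares over all genes were 4.61% lower and 5.46% higher. Fits that left out 1 array called 9 or 10 lower and at most 1 higher, and 9 were called lower without both U937 arrays numbered 2. In U937 13 of the 26 rose and 3 fell (14.3% and 14.4% of all genes), and in HL60 8 rose and 8 fell (14.7% and 15.0% of all genes). C3AR1, the receptor for the complement fragment C3a, differed by -3.26 ± 0.67, with 0.42 ± 0.47 in HL60 and 3.68 ± 0.47 in U937. PTAFR, the receptor for platelet-activating factor, differed by -2.63 ± 0.33, and FPR1, which binds formylated bacterial peptides, by -2.74 ± 0.26, falling in HL60 by 1.15 ± 0.19 and rising in U937 by 1.59 ± 0.19. CCR2, the receptor that draws monocytes to CCL2, fell by 3.65 ± 0.33 in HL60, and its effect in U937 was -1.02 ± 0.33. IL3RA (-2.01 ± 0.33) and IL1R1 (-1.82 ± 0.35), chains of the interleukin 3 and interleukin 1 receptors, also favoured U937.

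Several secreted matrix proteases also had higher PMA effects in U937 than in HL60, and other gene products are named beside them. MMP8, the collagenase of neutrophil granules, was dim in 3 groups. MMP8 stood at -3.89, -3.83 and -3.68 in PMA-treated HL60, against -2.17, -2.36 and -3.36 in DMSO-treated HL60. In U937, MMP8 stood at 2.52, 0.18 and 0.01 with PMA, against -2.68, -2.48 and -3.33 with DMSO. The difference was -4.90 ± 0.77 (adjusted p = 0.0015), and the PMA-treated U937 arrays lay above all others. MMP9, a gelatinase, rose in both lines, to 2.04 ± 0.41 in PMA-treated HL60, against -0.82 ± 0.09 with DMSO, and to 3.93 ± 0.28 in PMA-treated U937, against -0.74 ± 0.18 with DMSO, a difference of -1.81 ± 0.29. MMP1, interstitial collagenase, differed by -3.93 ± 1.05 (adjusted p = 0.0332), and that call was lost without HL60 PMA 2 or 3, HL60 DMSO 2 or 3 or U937 PMA 1 or 2 (adjusted p from 0.0696 to 0.0763). TDO2, which breaks down tryptophan (-4.39 ± 0.81), the membrane protein TM4SF1 (-4.41 ± 0.74) and the lysophosphatidylserine receptor GPR34 (-4.38 ± 0.71) were among the 12 largest negative differences. TIMP1, an inhibitor of these proteases, rose in both lines and further in HL60, by 4.61 ± 0.12 against 2.30 ± 0.12 in U937.

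Cytokines and chemokines split between the lines. Of 21 cytokines and interleukins, 4 were called higher and 3 lower (5.46% and 4.61% of all genes), with a median of 0.18. Without the HL60 PMA array numbered 3, 7 were called higher, and 10 with the block within each line. TNF, a central inflammatory cytokine, rose in U937 by 1.82 ± 0.24 and had an effect of -0.17 ± 0.24 in HL60 (adjusted p of the difference = 0.00227). TGFB1, a suppressive cytokine, rose by 2.41 ± 0.15 in HL60 and 1.21 ± 0.15 in U937. Among 18 chemokines 3 were called higher and 4 lower, with a median of -0.54. The count of 4 dropped to 2 in 6 of the fits without 1 array: those without HL60 PMA 1 or 3, HL60 DMSO 2 or 3, or U937 DMSO 1 or 2. CCL22, an attractant of T cells that macrophages and dendritic cells make, rose in HL60 by 4.92 ± 0.27 and had an effect of 0.40 ± 0.27 in U937. CCL7, an attractant of monocytes, went the other way, with a rise of 5.22 ± 0.48 in U937 and an effect of 1.34 ± 0.48 in HL60. CCL5, a T cell and monocyte attractant, rose in both, to 4.70 ± 0.36 in PMA-treated HL60, against -0.14 ± 0.49 with DMSO, and to 3.42 ± 0.39 in PMA-treated U937, against 1.74 ± 0.38 with DMSO.

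CYBB, the catalytic subunit of the phagocyte NADPH oxidase, combined unequal starting levels with unequal rises. CYBB stood at 4.23, 4.35 and 4.12 in PMA-treated HL60, against 3.56, 3.54 and 3.91 in DMSO-treated HL60. In U937, CYBB stood at 1.36, 1.29 and 1.60 with PMA, against -1.26, -1.22 and -1.43 with DMSO. HL60 was already high before PMA, U937 was low, and although U937 rose more (difference -2.16 ± 0.20, adjusted p = 3.49e-05), every PMA-treated U937 array stayed below every HL60 array. DCSTAMP, needed for the fusion of macrophages and osteoclasts, rose from dim levels in both lines, by 8.52 ± 0.25 in HL60 and 6.42 ± 0.25 in U937, a difference of 2.10 ± 0.36.

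PMA lowered several progenitor factors in U937 whose change in HL60 was not called. BMI1, a polycomb protein of stem cell self-renewal, was higher in DMSO-treated U937 than in HL60. BMI1 stood at 0.08, -0.33 and -0.55 in PMA-treated HL60, against 0.56, 0.25 and -0.35 in DMSO-treated HL60. In U937, BMI1 stood at 1.55, 1.56 and 1.06 with PMA, against 3.65, 3.83 and 3.78 with DMSO. The HL60 groups overlapped, and the difference was 1.95 ± 0.33 (adjusted p = 0.0025). MEIS1 gave a similar picture. MEIS1 stood at -2.15, -2.12 and -2.29 in PMA-treated HL60, against -2.57, -2.70 and -2.31 in DMSO-treated HL60. In U937, MEIS1 stood at 1.15, 1.30 and 1.48 with PMA, against 3.17, 3.13 and 3.06 with DMSO. It was dim on all HL60 arrays and fell in U937, a difference of 2.15 ± 0.19 (adjusted p = 2.42e-05). Of 14 HOXA, MEIS and PBX factors, limma called 5 higher and 0 lower (0 lower at an unadjusted p under 0.05), with a median of 0.64. Fits without 1 array called 4 to 6 higher, and over all genes 5.46% were called higher and 4.61% lower. In U937 5 of the 14 fell and 0 rose (14.4% and 14.3% of all genes), and in HL60 3 rose and 0 fell (14.7% and 15.0% of all genes). HOXA11 fell in U937 by 1.39 ± 0.19, and MEIS2 by 0.84 ± 0.14, whereas HOXA5 rose in HL60 by 2.14 ± 0.19 and had an effect of -0.44 ± 0.19 in U937. HOXA9 had a difference of 0.82 ± 0.36 that was not called (95% interval 0.03 to 1.61), with an adjusted p of 0.00459 under the within-line block. HOXA9 was counted among the 5 falls in U937, but that call was lost in every fit without 1 array other than those without U937 PMA 2 or U937 DMSO 3 (adjusted p from 0.052 to 0.175).

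The other large U937-confined falls were the lectin-like receptors CLECL1, which fell by 2.83 ± 0.27, and CLEC2A, which fell by 2.28 ± 0.28, the integrin activator FERMT1, by 2.50 ± 0.16, the matrix protein VIT, by 2.35 ± 0.24, and NREP, first described in regenerating neurons, by 2.33 ± 0.25. MARCKS, a main substrate of protein kinase C, fell in U937 by 1.61 ± 0.19 and had an effect of 0.01 ± 0.19 in HL60. Among 26 genes of protein kinase C and diacylglycerol signalling, 5 were called higher and 4 lower (5.46% and 4.61% of all genes). The within-line block called 7 of them lower, and the median was -0.05 (0.24 as deposited). RASGRP1, a diacylglycerol-responsive activator of Ras, rose in HL60 by 2.20 ± 0.19, against an effect of 0.19 ± 0.19 in U937, while its relative RASGRP2 fell in both lines and further in HL60, by 2.42 ± 0.17, against 1.22 ± 0.17 in U937.

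Opposite responses that fell in HL60 and rose in U937 included several innate immune genes. S100A8 and S100A9 encode the subunits of calprotectin, a calcium-binding alarmin of neutrophils and monocytes, and S100A12 encodes a related alarmin. CD14 encodes the co-receptor that hands lipopolysaccharide to the Toll-like receptor complex. The 250 bases before the starts of S100A9, S100A12 and CD14 are shown, since these genes moved down in HL60 and had higher means with PMA in U937. They are RefSeq sequences of GRCh38.p14, 5′ to 3′ on the strand of each gene. Capitals mark the letters of AP-1 (TGANTCA), C/EBP (TTGCNNAA) and PU.1 (GAGGAA) on either strand.
S100A9 chr1:153357604-153357853, plus strand: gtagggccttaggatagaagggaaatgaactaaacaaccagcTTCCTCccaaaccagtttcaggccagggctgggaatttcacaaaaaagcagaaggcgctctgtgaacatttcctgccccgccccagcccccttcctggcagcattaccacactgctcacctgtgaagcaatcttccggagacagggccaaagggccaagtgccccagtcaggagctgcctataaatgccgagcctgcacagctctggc
S100A12 chr1:153375622-153375871, minus strand: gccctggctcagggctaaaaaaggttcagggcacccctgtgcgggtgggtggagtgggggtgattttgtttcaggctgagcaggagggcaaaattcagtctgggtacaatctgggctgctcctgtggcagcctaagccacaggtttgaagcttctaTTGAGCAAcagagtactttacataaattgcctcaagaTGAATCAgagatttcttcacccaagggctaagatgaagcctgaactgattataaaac
CD14 chr5:140633176-140633425, minus strand: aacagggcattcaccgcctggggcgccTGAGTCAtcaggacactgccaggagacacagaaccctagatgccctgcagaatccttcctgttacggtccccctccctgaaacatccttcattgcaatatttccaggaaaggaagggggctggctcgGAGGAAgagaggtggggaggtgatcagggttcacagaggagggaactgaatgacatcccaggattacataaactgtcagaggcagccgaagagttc
S100A9 held a PU.1 match whose first base lay at -208 from the start of the gene, S100A12 held an AP-1 match at -57 and a C/EBP match at -94, and CD14 held an AP-1 match at -223 and a PU.1 match at -96. Over 35116 promoters of the same length, 6.57% held the AP-1 letters, 9.05% those of C/EBP and 23.6% those of PU.1. For the 44 genes with a promoter in the table that fell in HL60 and rose in U937, 7.94% of 63 promoters held AP-1, 9.52% C/EBP and 23.8% PU.1. A match describes letters and not a bound site.

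S100A8 stood at -0.58, -1.42 and -1.55 in PMA-treated HL60, against 4.41, 3.57 and 3.37 in DMSO-treated HL60. In U937, S100A8 stood at 3.87, 3.09 and 1.48 with PMA, against 1.25, 2.00 and -0.53 with DMSO. The HL60 groups did not overlap and the U937 groups did, since U937 DMSO 2 lay above U937 PMA 3. The difference was -6.87 ± 0.93 (adjusted p = 0.000513), with effects of -4.97 ± 0.66 in HL60 and 1.91 ± 0.66 in U937. The U937 rise had an adjusted p of 0.0468 and was lost without any 1 of HL60 PMA 2 or 3, HL60 DMSO 2 or 3, U937 PMA 1 or 2 or U937 DMSO 1 or 3 (adjusted p from 0.0558 to 0.183). Nor was it called as deposited (adjusted p = 0.0613), with the median of probe sets (0.0508) or without both U937 arrays numbered 2 (0.0678). S100A9 fell in HL60 by 3.14 ± 0.72, and its U937 effect of 1.98 ± 0.72 did not pass (adjusted p = 0.0586). S100A12 fell in HL60 by 1.88 ± 0.47 and rose in U937 by 1.91 ± 0.47, although both its HL60 means were below 0. Without both HL60 arrays numbered 1 the S100A12 fall in HL60 was not called (adjusted p = 0.0675). These 3 were the only members called among 10 S100 genes, all lower, as were 4.61% of all genes. The list had a median difference of 0.07 (0.36 as deposited).

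CD14 and its partner TLR2, the receptor for bacterial lipoproteins, moved together. CD14 stood at 0.21, 0.30 and 0.14 in PMA-treated HL60, against 1.56, 0.93 and 1.70 in DMSO-treated HL60. In U937, CD14 stood at 0.72, 0.63 and 0.03 with PMA, against -1.28, -1.61 and -0.83 with DMSO. HL60 started above U937 and ended within the range of PMA-treated U937, and the difference was -2.88 ± 0.35 (adjusted p = 0.000243). TLR2 stood at -0.09, -0.15 and -0.01 in PMA-treated HL60, against 0.89, 1.00 and 1.59 in DMSO-treated HL60. In U937, TLR2 stood at 2.22, 1.74 and 1.83 with PMA, against -0.71, -0.71 and -0.76 with DMSO. Neither line's groups overlapped, and the difference was -3.90 ± 0.26 (adjusted p = 2.43e-06). FCGR1A, the high-affinity IgG receptor, fell by 2.45 ± 0.21 in HL60 and rose by 1.45 ± 0.21 in U937. It rests on 3 probe sets and has near-identical gene copies, so its value is uncertain. ADGRE1, the human relative of the mouse macrophage marker F4/80, started at nearly the same level in both lines, -1.29 ± 0.26 in HL60 and -1.31 ± 0.24 in U937 with DMSO. With PMA it fell to -2.34 ± 0.07 in HL60 and rose to 1.77 ± 0.33 in U937.

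Of 16 Toll-like receptor and signalling genes, limma called 4 lower and 0 higher (1 higher at an unadjusted p under 0.05), and the median was -0.33. Of all genes, 4.61% were called lower and 5.46% higher. In the wider list of 22 monocyte and macrophage surface markers, 5 were called higher and 4 lower, with a median of 0.21. Those called higher included the apoptotic cell receptor MERTK (2.27 ± 0.22), the scavenger receptor MSR1 (1.84 ± 0.36) and the inhibitory receptor LILRB1 (1.81 ± 0.33), and those called lower were CD14, FCGR1A, CD163 and CCR2. The inhibitory IgG receptor FCGR2B (3.01 ± 0.33) was also called higher, but its probe sets may share signal with close relatives.

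NOTCH1, a receptor of cell fate decisions, began alike with DMSO, at 1.32 ± 0.25 in HL60 and 1.14 ± 0.11 in U937. It fell by 0.99 ± 0.22 in HL60 and rose by 1.31 ± 0.22 in U937. GPR132, a lipid-responsive receptor (-2.44 ± 0.24), MYADM, a membrane protein of myeloid differentiation (-3.04 ± 0.24), the growth factor NRG4 (-2.27 ± 0.19), the transporter ABCA13 (-3.28 ± 0.35), the iron reductase CYBRD1 (-2.86 ± 0.31) and the Golgi mannosidase MAN2A2 (-2.01 ± 0.30) shared this direction. MMP2, a gelatinase of connective tissue, also fell in HL60, by 0.87 ± 0.18, and rose in U937, by 0.98 ± 0.18. With values as deposited, the fall of ABCA13 in HL60 (adjusted p = 0.0535) and the rises of CYBRD1 (0.184), MAN2A2 (0.117) and MMP2 (0.0658) in U937 were not called. The ABCA13 fall was also not called without both HL60 arrays numbered 1 (0.0639), nor the MAN2A2 rise without both U937 arrays numbered 2 (0.0876).

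**Figure D3:**
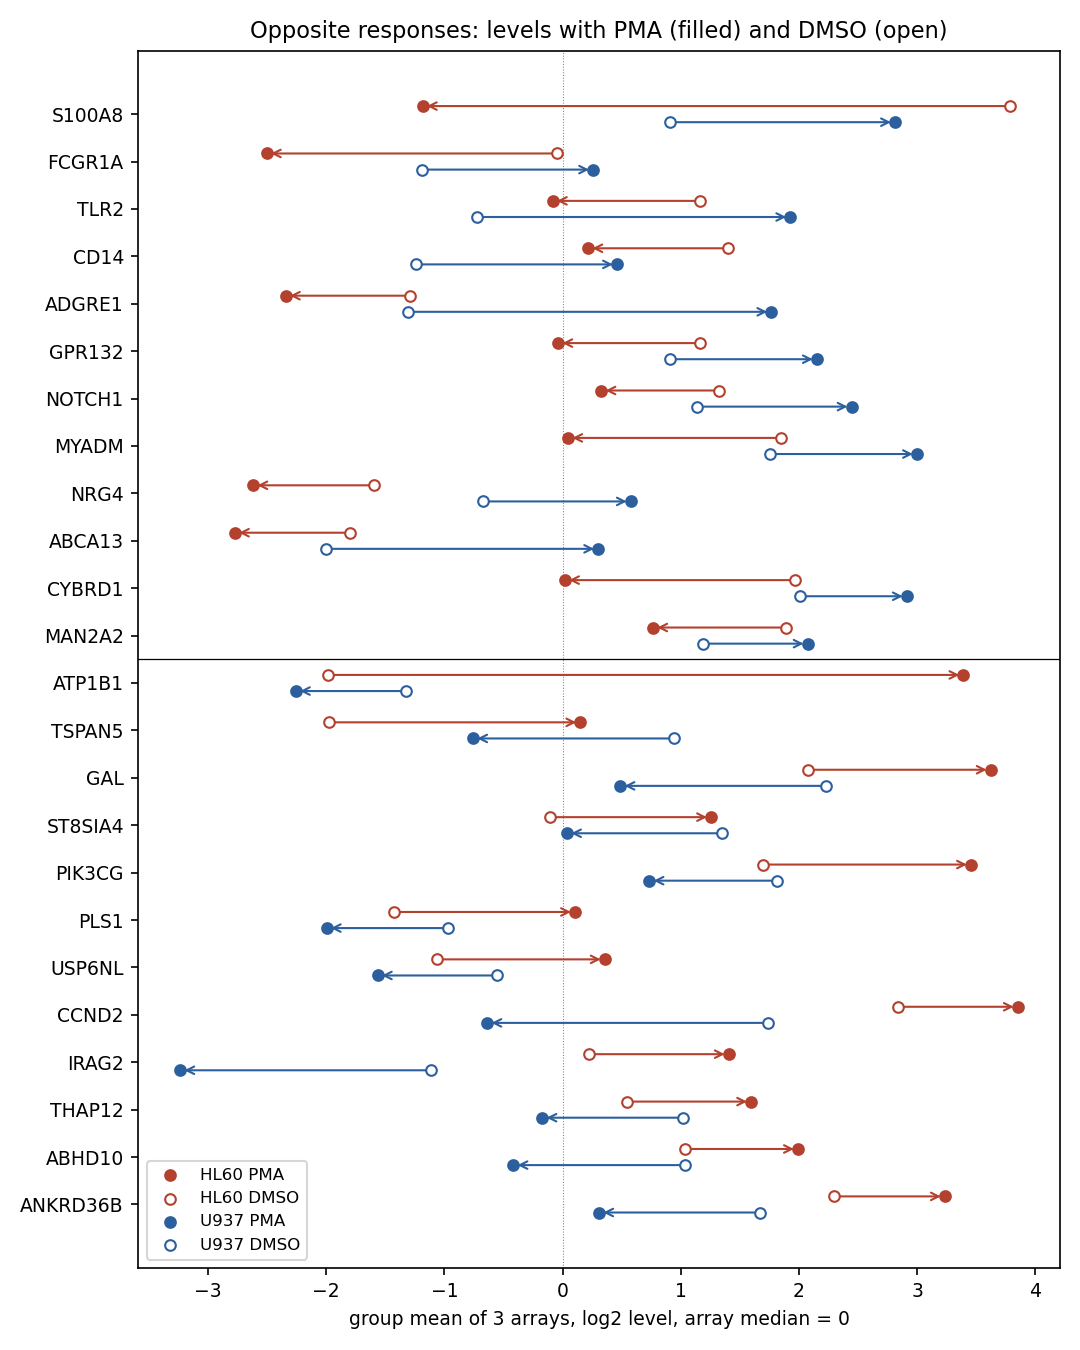
Each row is a gene, with arrows ending at the mean level with PMA (filled) and starting at the mean level with DMSO (open) in HL60 (red, upper) and U937 (blue, lower), in log2 with the array median at 0. By these means the upper 12 genes fell in HL60 and rose in U937 and the lower 12 did the reverse, and some calls were fragile, as the text states. ADGRE1, NOTCH1, GAL and PIK3CG started at similar levels in both lines.

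In the other direction, 66 genes rose in HL60 and fell in U937. ATP1B1 had the second largest positive difference of all. ATP1B1 stood at 3.55, 3.36 and 3.27 in PMA-treated HL60, against -1.91, -1.95 and -2.10 in DMSO-treated HL60. In U937, ATP1B1 stood at -2.50, -2.37 and -1.90 with PMA, against -1.11, -1.49 and -1.38 with DMSO. The PMA-treated HL60 arrays stood above all others, and the difference was 6.31 ± 0.24 (adjusted p = 2.52e-08). PIK3CG encodes the catalytic subunit of phosphoinositide 3-kinase gamma, which acts downstream of chemoattractant receptors. PIK3CG stood at 3.35, 3.46 and 3.56 in PMA-treated HL60, against 1.44, 1.74 and 1.90 in DMSO-treated HL60. In U937, PIK3CG stood at 0.46, 0.51 and 1.24 with PMA, against 1.84, 1.57 and 2.02 with DMSO. With DMSO the lines overlapped and with PMA they did not, and the difference was 2.84 ± 0.30 (adjusted p = 8.14e-05). GAL, the neuropeptide galanin, likewise started alike, at 2.08 ± 0.14 in HL60 and 2.23 ± 0.13 in U937, and ended at 3.62 ± 0.16 in PMA-treated HL60 and 0.49 ± 0.38 in PMA-treated U937.

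TSPAN5, a tetraspanin that guides the protease ADAM10, rose by 2.13 ± 0.18 in HL60 and fell by 1.70 ± 0.18 in U937. ST8SIA4, which builds polysialic acid (2.68 ± 0.27), the actin bundler PLS1 (2.56 ± 0.31), the Rab regulator USP6NL (2.43 ± 0.32), the mitochondrial hydrolase ABHD10 (2.40 ± 0.35) and ANKRD36B (2.30 ± 0.31), which has close gene copies, followed. CCND2, cyclin D2, fell by 2.38 ± 0.34 in U937 and rose by 1.01 ± 0.34 in HL60. The rise in HL60 was lost without any 1 of HL60 PMA 2 or 3, HL60 DMSO 1 or 3 or U937 DMSO 2 (adjusted p from 0.0505 to 0.153). For IRAG2 (3.30 ± 0.49) and THAP12 (2.24 ± 0.41) the rise in HL60 was lost without any 1 of HL60 PMA 1 or HL60 DMSO 2 or 3 (adjusted p from 0.0694 to 0.0801 for IRAG2 and from 0.0546 to 0.0657 for THAP12). Among transcription factors, ERG, an ETS family factor, rose by 0.70 ± 0.16 in HL60 and fell by 0.86 ± 0.16 in U937. Its relative ETS1 rose by 0.99 ± 0.17 in HL60 and fell by 0.54 ± 0.17 in U937, a fall that lost its call without any 1 of U937 PMA 2 or 3 or U937 DMSO 1 or 2 (adjusted p from 0.0596 to 0.0924). The interferon-induced antiviral protein MX2 did the same, with 0.82 ± 0.16 in HL60 and a fall of 0.67 ± 0.16 in U937. Without both U937 arrays numbered 2, the falls of THAP12 (adjusted p = 0.102), ETS1 (0.151) and MX2 (0.0565) in U937 and the rise of CCND2 in HL60 (0.0587) were not called.

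Most mitosis genes fell in both lines, and many fell further in HL60. Of 34 measured genes of mitosis and G2/M, 31 fell in HL60 and 34 in U937 (15.0% and 14.4% of all genes). Their median effects were -3.10 in HL60 and -1.81 in U937. The difference was called lower for 19 and higher for 2 (4.61% and 5.46% of all genes), with a median of -1.14. Fits without 1 array called 14 to 24 lower, and 14 were called lower without both U937 arrays numbered 2. TOP2A encodes the topoisomerase that untangles chromosomes. TOP2A stood at -2.16, -2.26 and -1.90 in PMA-treated HL60, against 3.13, 2.85 and 2.83 in DMSO-treated HL60. In U937, TOP2A stood at 0.60, 1.15 and 0.42 with PMA, against 2.90, 2.99 and 3.26 with DMSO. Starting levels overlapped, the PMA groups did not, and the difference was -2.72 ± 0.27 (adjusted p = 5.72e-05). The kinetochore protein CENPF (-2.43 ± 0.30), the spindle protein ASPM (-2.27 ± 0.31), the cytokinesis protein PRC1 (-2.23 ± 0.33) and the mitotic kinase PLK1 (-2.17 ± 0.33) showed the next largest differences.

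CDC20, which directs the anaphase-promoting complex, departed from the list. CDC20 stood at 2.84, 2.89 and 2.85 in PMA-treated HL60, against 2.72, 2.87 and 2.92 in DMSO-treated HL60. In U937, CDC20 stood at 1.89, 2.70 and 1.94 with PMA, against 3.67, 3.82 and 3.63 with DMSO. The HL60 groups overlapped, the U937 groups did not, and the difference was 1.55 ± 0.27 (adjusted p = 0.00259). AURKA, Aurora kinase A, had effects of 0.00 ± 0.25 in HL60 and -1.34 ± 0.25 in U937. Its difference of 1.34 ± 0.35 had an adjusted p of 0.0308, and the call was lost without any 1 of HL60 PMA 1 or 3, HL60 DMSO 2 or 3, U937 PMA 1 or 3 or U937 DMSO 1 or 2 (adjusted p from 0.0626 to 0.0827). Of 40 genes of DNA replication and G1/S, 38 fell in each line (15.0% of all genes in HL60 and 14.4% in U937). Their median effects were -2.21 in HL60 and -1.78 in U937. The difference was called for 4, all lower, as it was for 4.61% of all genes. The count of 4 was 2 without HL60 PMA 2, HL60 DMSO 1, HL60 DMSO 2, U937 PMA 2, U937 DMSO 1 or U937 DMSO 3. With the replicate block within each line, 13 were called lower and 1 higher. Of 16 CDK inhibitors and D cyclins, 3 were called higher and 2 lower (5.46% and 4.61% of all genes). The within-line block called 6 higher, and 1 was called lower in every fit without 1 array other than those without U937 PMA 3 or U937 DMSO 2. CCND1, cyclin D1, rose in both lines, by 2.47 ± 0.15 in HL60 and 0.64 ± 0.15 in U937. In bulk RNA, fewer dividing cells and less RNA per cell cannot be told apart.

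**Figure D4:**
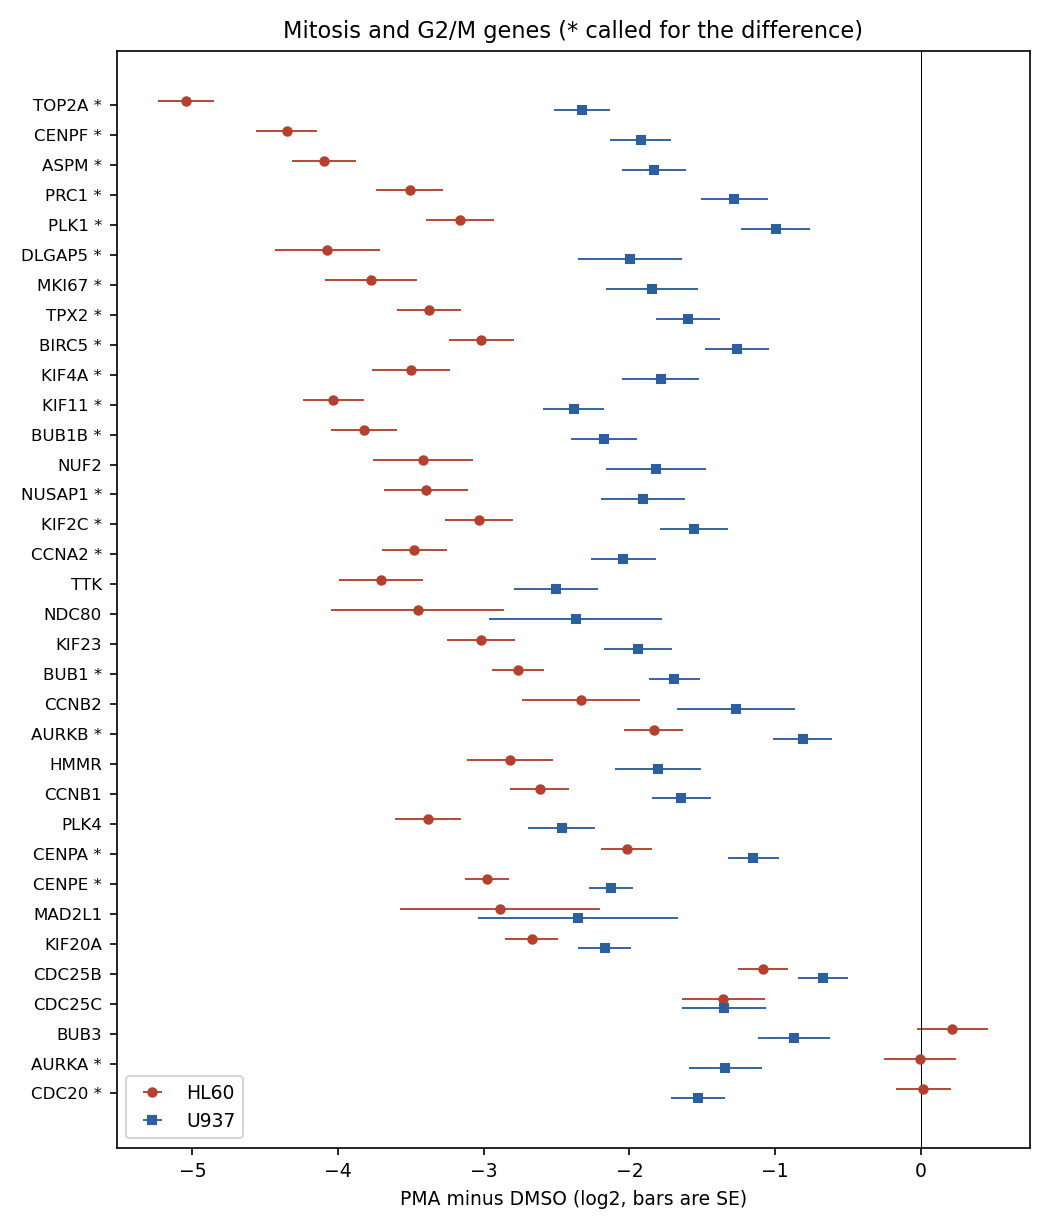
PMA effects (log2) of the 34 measured mitosis and G2/M genes in HL60 (red circles) and U937 (blue squares), with SE, ordered by the difference. Most HL60 points lie left of the U937 points, whereas CDC20 and AURKA lie near 0 in HL60 and below -1 in U937.

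Many responses were shared at the precision available. Among the largest shared rises were those of RGS1, a regulator of chemokine receptor signals, with 6.80 ± 0.44 in HL60 and 6.66 ± 0.44 in U937, and MMP7, matrilysin, with 6.22 ± 0.47 in HL60 and 6.10 ± 0.47 in U937. The 95% intervals of their differences were wide, -1.22 to 1.49 for RGS1 and -1.33 to 1.58 for MMP7. CSF1R, the receptor for M-CSF, rose by 2.99 ± 0.20 in HL60 and 2.95 ± 0.20 in U937, with an interval of -0.58 to 0.65 for the difference. CDKN1A, the cell cycle inhibitor p21, rose by 3.74 ± 0.18 in HL60 and 3.60 ± 0.18 in U937, with an interval of -0.43 to 0.71. ITGAM, the CD11b integrin chain of myeloid cells, rose by 3.52 ± 0.31 in HL60 and 3.11 ± 0.31 in U937 (interval -0.55 to 1.37). The growth regulator MYC fell by 1.98 ± 0.28 in HL60 and 1.65 ± 0.28 in U937 (interval -1.18 to 0.52), and HSPA4L, a heat shock protein relative, by 3.51 ± 0.23 in HL60 and 2.86 ± 0.23 in U937 (interval -1.37 to 0.06).

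For the myeloid master factors SPI1 (PU.1) and CEBPA, the intervals of the difference were -0.86 to 0.35 and -1.07 to 0.40, and for CD4 -0.35 to 0.43. SPP1, IL1B, PLAC8 and IRF8 were not called in the fit without a block but were called with the replicate block within each line. SPP1, osteopontin, rose by 6.26 ± 0.31 in HL60 and 7.47 ± 0.31 in U937 (difference -1.22 ± 0.44, adjusted p = 0.122, and 0.0148 with the block). IL1B, interleukin 1 beta, rose by 5.27 ± 0.30 in HL60 and 4.21 ± 0.30 in U937 (difference 1.06 ± 0.42, adjusted p = 0.161, and 0.00758 with the block). IRF8, a factor of monocyte development, fell by 2.89 ± 0.42 in HL60 and had an effect of -1.08 ± 0.42 in U937 (difference -1.81 ± 0.59, adjusted p = 0.0808, and 0.000638 with the block). PLAC8, a small cysteine-rich protein of myeloid cells, fell by 4.57 ± 0.33 in HL60 and 3.42 ± 0.33 in U937 (difference -1.14 ± 0.46, adjusted p = 0.17, and 0.00239 with the block).

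**Figure D5:**
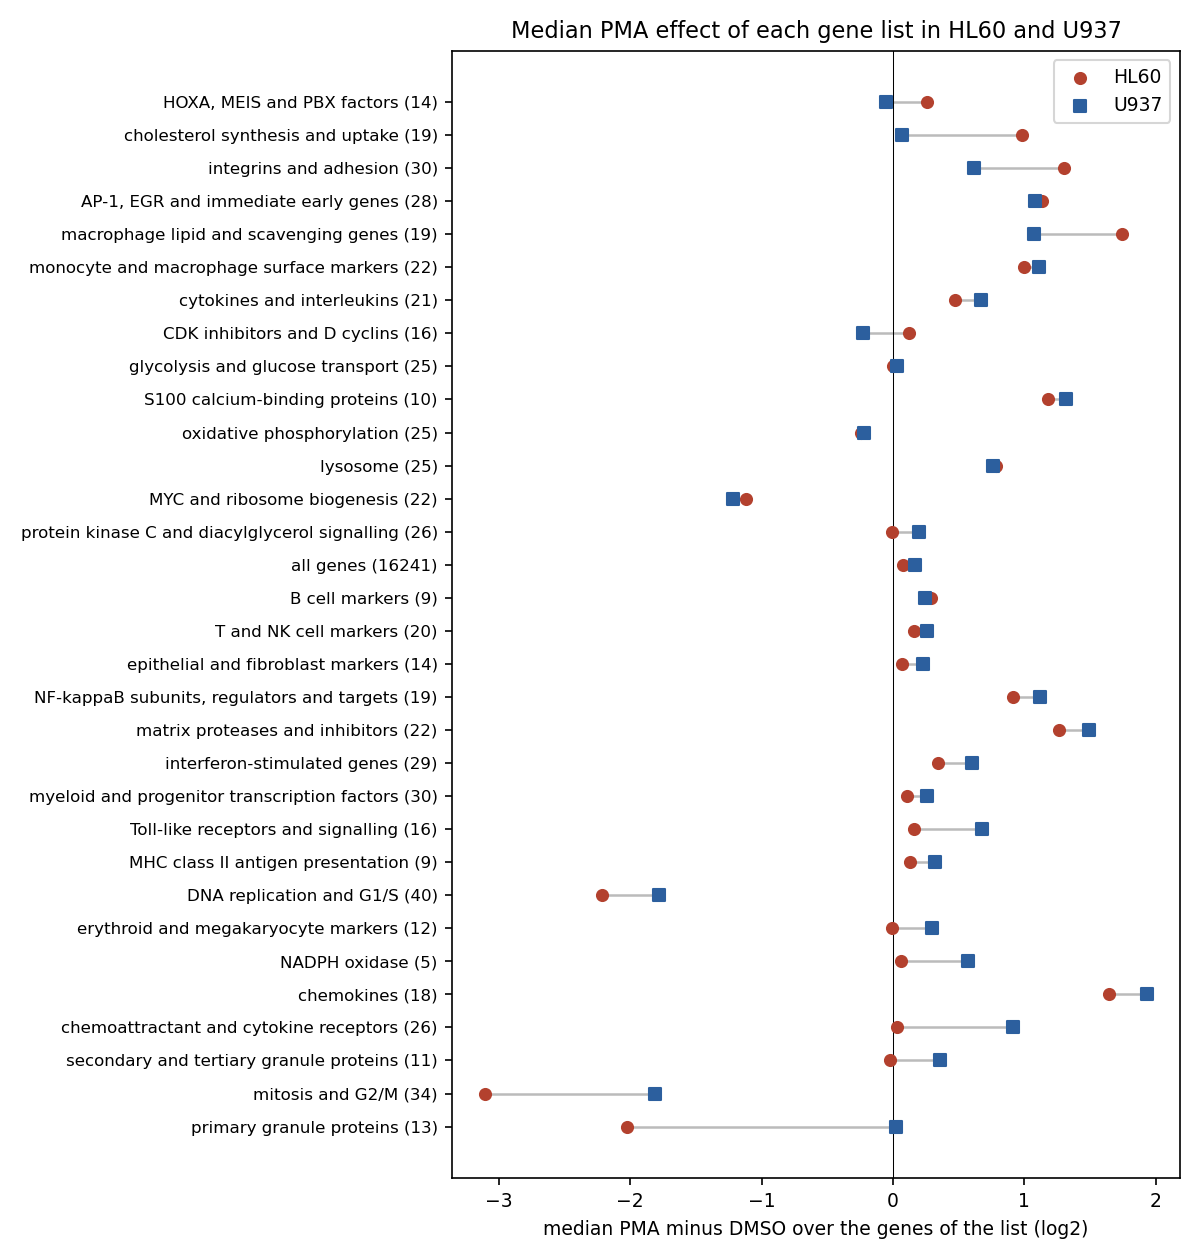
Median PMA effect (log2) over the measured genes of each list, with their number in brackets, in HL60 (red circles) and U937 (blue squares), ordered by the median difference. Primary granule proteins and mitosis genes have medians of -2.02 and -3.10 in HL60 against 0.02 and -1.81 in U937, and oxidative phosphorylation lies at -0.24 in HL60 and -0.22 in U937.

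No gene of 25 of oxidative phosphorylation was called, with a median difference of 0.03 (-0.01 when arrays were centred on the median gene), and limma gave 2 of them an unadjusted p under 0.05, while the within-line block called 3 higher and 1 lower. For comparison with the counts that follow, 5.46% of all genes were called higher and 4.61% lower. Of 25 glycolysis and glucose transport genes, limma called 4 higher and 0 lower (0 lower at an unadjusted p under 0.05). They included FBP1, an enzyme that opposes glycolysis (3.97 ± 0.38), ENO2, an enolase (2.55 ± 0.25), and PFKFB4, a regulator of glycolytic flux (1.59 ± 0.35). Of 19 cholesterol genes, 3 were called higher and 1 lower, with a median difference of 0.47, and STARD4, a cholesterol carrier, differed by 2.19 ± 0.37. Without HL60 PMA 3, or with the within-line block, 5 cholesterol genes were called higher, and the lower call was kept only in the fits without HL60 PMA 3, HL60 DMSO 1 or U937 PMA 1. Of 22 genes of MYC and ribosome biogenesis, 15 fell in HL60 and 13 in U937 (15.0% and 14.4% of all genes). Of these 22, 1 was called for the difference (2 higher and 3 lower with the within-line block). Of 29 interferon-stimulated genes, 1 was called higher and 3 lower, with a median of -0.24 (0.05 as deposited), and 6 were called lower without the U937 PMA array numbered 3. The within-line block called 3 interferon-stimulated genes higher and 6 lower.

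The counts of the next lists stand beside 5.46% of all genes called higher and 4.61% called lower. Of 22 matrix proteases and inhibitors, 4 were called higher and 5 lower (8 lower with the within-line block), with a median of -0.21 (0.07 as deposited). Among them A2M, a broad protease inhibitor, rose in both lines and further in HL60, by 6.65 ± 0.28 against 4.20 ± 0.28 in U937. PLAU, the urokinase activator of plasminogen, fell in HL60 by 1.72 ± 0.20 and had an effect of -0.17 ± 0.20 in U937. Of 19 NF-kappaB subunits, regulators and targets, 1 was called higher (2 without U937 PMA 3 or with the within-line block) and 3 lower, with a median of -0.17 (0.12 as deposited). The adhesion molecule ICAM1 rose in both lines, by 3.06 ± 0.18 in HL60 and 1.83 ± 0.18 in U937. TRAF1, a signalling adaptor, rose by 0.72 ± 0.22 in HL60 and 2.62 ± 0.22 in U937, and its HL60 call was lost without HL60 PMA 2 or HL60 DMSO 1 or 2 (adjusted p from 0.0607 to 0.099). Of 30 myeloid and progenitor transcription factors, 4 were called higher and 3 lower, with a median of -0.25 (0.04 as deposited). Of these factors 1 was called lower without HL60 PMA 3, HL60 DMSO 2, U937 PMA 1 or 2 or U937 DMSO 1 or 2, and the within-line block called 7 higher and 9 lower. Of 25 lysosome genes, 2 were called higher and 1 lower, against 4 and 4 with the within-line block. The 2 higher became 1 without HL60 PMA 2, HL60 DMSO 2, U937 PMA 1 or 2 or U937 DMSO 1 or 2, and 2 were called lower without U937 PMA 2. The lysosomal lipase LIPA, kept with the lipid genes, rose by 2.49 ± 0.26 in HL60 and had an effect of 0.78 ± 0.26 in U937, whose call was lost without U937 PMA 1 or 3 or any 1 DMSO array of either line (adjusted p from 0.0504 to 0.134). Of 11 secondary and tertiary granule proteins, 4 were called lower, among them MMP8 and MMP9, and 2 without the U937 PMA array numbered 1.

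The lists of markers of other cell types had mean levels below the array median in all 4 groups, but not all lay below -1.48. That value is a limit for probe sets, and a list mean does not show which members were dim. The mean of the erythroid and megakaryocyte list lay above -1.48 in every group, and ran from -0.84 to -0.63 in PMA-treated HL60. That of the B cell list lay above -1.48 except in DMSO-treated U937 (-1.55 to -1.47). The mean level of 14 epithelial and fibroblast markers lay between -1.58 and -1.45 in PMA-treated HL60, -1.73 and -1.48 in DMSO-treated HL60, -1.64 and -1.50 in PMA-treated U937, and -1.82 and -1.70 in DMSO-treated U937, and 0 were called (limma, 0 at an unadjusted p under 0.05). For 20 T and NK cell markers the mean ran from -1.70 to -1.58 in PMA-treated HL60, -2.02 to -1.73 in DMSO-treated HL60, -1.93 to -1.69 in PMA-treated U937, and -2.17 to -2.05 in DMSO-treated U937. Of these 1 was called higher, as was 1 of 12 erythroid and megakaryocyte markers, and that erythroid and megakaryocyte call was kept among the single-array fits only in those without an HL60 PMA array. Among 9 B cell markers 2 were called higher and 3 lower, against 5.46% and 4.61% of all genes. The count higher was 1 without HL60 PMA 2 or 3, HL60 DMSO 1 or 3, U937 PMA 2 or 3 or U937 DMSO 1 or 2. It was 0 without both U937 arrays numbered 2. FCER2, the low-affinity IgE receptor that monocytes can also carry, rose in U937 by 3.33 ± 0.29 and had an effect of 0.50 ± 0.29 in HL60, and CD22, an inhibitory lectin of B cells, rose in U937 by 1.92 ± 0.12. The part of such cells in the results was not tested.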

How the data were processed

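Total RNA of HL60 and U937 cells was hybridised to Affymetrix human exon arrays. The authors deposited log2 values of core probe sets at the exon level, made with Affymetrix Expression Console per the submitters' processing notes. Its version is not given in the sources used here, nor are the background correction, the normalization and the genome build, and limits on precision come from the number of arrays. Of 287329 probe sets, the platform annotation gave 261273 exactly 1 symbol, 9155 several and 16901 none. Symbols were updated through RefSeq (14546 current, 2300 updated, 95 kept).

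Each array was centred on its median probe set, and a gene's level averaged its probe sets with 1 symbol (at least 3). Gene values of the 12 arrays were fitted in limma 3.58.1 (R 4.3.3, data.table, version 1.17.8) with 4 group means, giving 8 residual and 11.95 total degrees of freedom and a median SE of 0.248 for the difference and 0.175 for an effect. Two-sided p-values were adjusted over the 16241 genes (Benjamini-Hochberg), with calls made under 0.05. The comparisons share arrays. Measurable genes had at least 1 group mean above 0. Named genes were the 12 largest measurable differences in each direction, up to 12 opposite responses per direction with the largest smaller effect, the 6 largest line-confined responses of each kind, up to 4 called members per list, fixed genes, and the largest shared responses. Some genes picked by these rules are not named in the text, among them ones that lost their calls in several alternatives. Other list members were named outside these rules, so the named members of a list are not always its largest differences. Members, lists and rules were chosen with earlier results of these data known. Within each line, same-numbered PMA and DMSO arrays deviated together (r = 0.79, 0.48 and 0.58 in HL60 and 0.45, 0.29 and 0.52 in U937). Other-numbered pairs reached 0.38 in HL60 (PMA 2 with DMSO 3) and 0.33 in U937 (PMA 1 with DMSO 2). Between the lines, arrays numbered 1 and those numbered 3 also deviated together (0.63 and 0.60 for the DMSO arrays), and those numbered 2 did not (-0.36). The labels do not say what the numbers mark, so fits with the number as a block stand beside results they change. The fit was tested on simulated data with independent arrays, so that test does not cover arrays that deviate together or stand apart. Promoters came from RefSeq (GRCh38.p14), and 12952 of the tested genes had an entry there.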

Additional observations from a re-analysis of the deposited data

Results flagged for a closer look

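The results listed here were marked because the effect of PMA differed between the lines by a test of that difference in limma. There were 1635 such genes, of which 119 moved in opposite directions and 749 were confined to HL60 or U937. The largest differences above 0 were those of CD226 (6.91), ATP1B1 (6.31) and CD9 (6.19), and the largest below 0 those of S100A8 (-6.87), MPO (-6.37) and SERPINB10 (-5.94), all in log2 units of HL60 minus U937. For each of these 6 genes the call was kept when any 1 array was left out.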

How the results depend on the processing

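Counts were recomputed under 26 alternatives, of which 3 (without both HL60 arrays numbered 1, centring on the median gene value, and the block within each line) were chosen after seeing the data. Leaving out 1 array at a time gave 1227 to 1716 genes called for the difference, 3942 to 4989 for PMA in HL60, 3379 to 4883 for PMA in U937, 2795 to 4255 between the lines with DMSO, 3720 to 4586 with PMA, 81 to 133 opposite responses and 597 to 735 confined responses. With values as deposited there were 972 for the difference, 2993 between the lines with PMA and 57 opposite. Without both U937 arrays numbered 2 there were 1026 for the difference, 2939 for PMA in U937, 53 opposite and 485 confined. The median of probe sets gave 79 opposite responses. Array weights, whose estimation did not converge, gave 4052 for the difference, 10016 for PMA in HL60, 8415 for PMA in U937, 11033 with DMSO, 433 opposite and 1233 confined. The term for the U937 arrays numbered 2 gave 1587 for the difference, 4574 for PMA in U937, 112 opposite and 729 confined. The alternatives not named here, other than the blocks given next, kept these counts within 1.5 times.

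Fits with a block allow for a possible pairing of arrays. The replicate block over both lines gave 2304 genes for the difference and 179 opposite. The replicate block within each line gave 3065 for the difference, 259 opposite and 1142 confined. The blocks took no call from the named genes. Of the 130 named genes called for the difference, 127 kept the call in every alternative that tested them, and AURKA, ELANE and MMP1 did not. These shares are not those of all called genes, since fragile ones were mostly left out of the text. With values as deposited, fewer members of several lists were called lower: 5 primary and 2 secondary granule proteins, 1 cytokine, 2 chemokines, 2 Toll-like receptor genes, 1 NF-kappaB gene, 2 adhesion genes, 1 replication gene, 1 myeloid factor, 1 protein kinase C gene, 0 CDK inhibitors or D cyclins and 0 interferon-stimulated genes.

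Among the named genes, only uncalled differences changed sign. CD4 ranged from -0.04 to 0.10 without 1 array and was -0.02 with the median of probe sets. CDKN1A ranged from -0.04 to 0.29. CSF1R ranged from -0.14 to 0.27 and was -0.02 without both U937 arrays numbered 2. MMP7 ranged from -0.51 to 0.58, and was -0.28 with array weights, -0.45 without both U937 arrays numbered 2 and -0.23 without both HL60 arrays numbered 1. RGS1 ranged from -0.38 to 0.48, and was -0.02 with array weights and -0.19 without both HL60 arrays numbered 1. SPI1 was 0.03 as deposited. The cause of these changes was not tested. Dim levels and 3 arrays a group limit the precision.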

Other observations

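A pair of drug efflux pumps outside the gene lists, singled out after their values were seen, rose in HL60 with uncalled changes in U937. ABCB1, which encodes P-glycoprotein, stood at 1.42, 0.82 and 0.69 in PMA-treated HL60 and had a group mean of -2.90 ± 0.18 with DMSO, against -3.04 ± 0.08 in PMA-treated U937 and -3.28 ± 0.15 in DMSO-treated U937. The difference was 3.63 ± 0.26 (adjusted p = 4.27e-06). ABCG2, which encodes a pump of many anticancer drugs, stood at 1.59, 0.37 and 0.31 in PMA-treated HL60 and had a mean of -3.25 ± 0.29 with DMSO, against -3.21 ± 0.27 in PMA-treated U937 and -3.61 ± 0.15 in DMSO-treated U937. Its difference was 3.61 ± 0.42 (adjusted p = 0.000171), and all PMA-treated HL60 arrays lay above the other 9 arrays for both genes. Since they were chosen for these values, the p-values are not independent support.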
